A study of Mus musculus with 4 samples.

Results

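Milk protein genes and regulators of the secretory alveolus were examined in mammary tumor cells with the NOTCH1 transgene on or off. The set held 10 genes, listed by name and chosen with earlier results of these data known. Of these, 7 encode milk proteins (Csn1s1, Csn1s2a, Csn2, Csn3, Wap, Lalba and Wfdc18) and the others encode the transcription factors Elf5, Stat5a and Stat5b. They were read by 19 probe sets that the array annotation assigns to 1 gene symbol, of 45037 probe sets and 18193 genes in all. The cells were lines 8534 and 8542, each established from a primary mammary tumor of a different female MMTV-tTA/TOP-ICN1 mouse of mixed FVB/N;B6 background. In these mice the MMTV promoter drives the tetracycline transactivator, which switches on human ICN1, the intracellular domain of NOTCH1. Each line was left untreated (ICN1 on) or received 2 µg/ml doxycycline for 24 hours (ICN1 off), and 1 array was hybridized per line and condition. Every array thus carries both transgenes. With no treated cells that lack them, an effect of doxycycline itself cannot be told apart from the loss of ICN1. Each line stands for 1 tumor, no source used here gives the ages of the mice, and the medium listed in the labels holds serum without an added lactogenic hormone.

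In pregnancy and lactation, prolactin binds its receptor on luminal cells and activates the kinase JAK2, which phosphorylates STAT5A and STAT5B. The phosphorylated STAT5 proteins enter the nucleus and switch on the casein genes and Wap. ELF5, an ETS-family transcription factor, is required for the alveolar secretory cell fate and is a marker of luminal progenitors. Caseins are the main milk proteins, WAP is the major rodent whey protein, and LALBA is the subunit that lets galactosyltransferase make lactose.

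The casein genes lie together on chromosome 5. In the mouse assembly GRCm38.p6, Csn1s1 spans chr5:87666208-87682578, Csn2 chr5:87692619-87699429, Csn1s2a chr5:87774450-87788798 and Csn3 chr5:87925579-87932550. Stat5b (chr11:100780731-100859004) and Stat5a (chr11:100859351-100885169) are neighbors. Wap (chr11:6635483-6638654) and Wfdc18 (chr11:83709004-83711360) lie elsewhere on the same chromosome, Elf5 on chromosome 2 (chr2:103412098-103450989) and Lalba on chromosome 15 (chr15:98480400-98482934). The 250 bases upstream of each RefSeq start were searched for the STAT motif TTCNNNGAA, the RBPJ core TGGGAA and the ETS core AGGAAG on either strand. RBPJ is the DNA-binding partner of the NOTCH intracellular domain. Of the 10 genes, 9 had a window (all but Csn3), 12 windows in all. The STAT motif was found in 2 of these windows (Csn1s1 and Csn2), against 7.02% of 32851 windows in the whole table. The RBPJ core was found in 3 (Csn1s1, Csn2 and Lalba), against 21.6%, and the ETS core in 6, against 29.5%. The 2 windows with a STAT motif are shown with those of the 2 genes that changed in both lines, since neither of the latter held a STAT or RBPJ match. Elf5 has a second RefSeq start (window chr2:103423818-103424067), also without a match, which is not printed. The start used for a window can differ from the end of the gene span given above. The Csn2 and Wap windows run into those spans. Windows of Lalba, Stat5a and Stat5b and the second Elf5 window lie inside them. Sequences run 5′ to 3′ on the strand of the gene, end at the base before the RefSeq start, and carry STAT and RBPJ matches in capitals.
Csn2, chr5:87699426-87699675, minus strand: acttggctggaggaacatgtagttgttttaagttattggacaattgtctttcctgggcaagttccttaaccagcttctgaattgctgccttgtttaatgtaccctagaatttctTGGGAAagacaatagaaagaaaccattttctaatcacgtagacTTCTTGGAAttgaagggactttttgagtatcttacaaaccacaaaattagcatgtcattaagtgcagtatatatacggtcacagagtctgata
Csn1s1, chr5:87665958-87666207, plus strand: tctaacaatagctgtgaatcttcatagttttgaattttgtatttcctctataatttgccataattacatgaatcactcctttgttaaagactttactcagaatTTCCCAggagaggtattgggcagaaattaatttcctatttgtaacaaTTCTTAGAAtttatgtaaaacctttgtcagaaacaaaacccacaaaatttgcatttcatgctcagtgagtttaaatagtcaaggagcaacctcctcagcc
Wfdc18, chr11:83708754-83709003, plus strand: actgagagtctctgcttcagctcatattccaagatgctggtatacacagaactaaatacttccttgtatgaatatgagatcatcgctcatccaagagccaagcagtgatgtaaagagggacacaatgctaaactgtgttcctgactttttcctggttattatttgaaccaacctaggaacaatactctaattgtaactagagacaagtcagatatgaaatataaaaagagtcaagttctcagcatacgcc
Elf5, chr2:103411848-103412097, plus strand: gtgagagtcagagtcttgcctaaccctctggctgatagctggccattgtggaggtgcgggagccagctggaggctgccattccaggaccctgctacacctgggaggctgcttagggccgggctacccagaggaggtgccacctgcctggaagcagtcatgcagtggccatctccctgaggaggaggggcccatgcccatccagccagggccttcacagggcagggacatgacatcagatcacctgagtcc
In Csn2 the STAT match TTCTTGGAA starts 93 bases upstream and the RBPJ core 136 bases upstream of the RefSeq start. In Csn1s1 the STAT match TTCTTAGAA starts 100 bases upstream, and the RBPJ core, 147 bases upstream, lies on the opposite strand and reads TTCCCA. None of these matches overlap. A match is a string of letters and does not show that a factor is bound there.

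The labels and the cell type were checked first. Of 8 NOTCH target genes, 7 passed as lower with doxycycline, beside 6.95% of all genes tested. Hes1 was also lower in both lines but missed the threshold (limma adjusted p = 0.0579). It went from 391 units to 224 in line 8534 and from 396 units to 299.5 in line 8542. The luminal markers Krt8, Krt18, Krt19, Epcam, Cdh1, Cldn3, Cldn4 and Cldn7 summed to 22730 units (untreated) and 28850 units (doxycycline) in line 8534, and to 19910 and 22360 units in line 8542. The basal markers summed to 6124 and 9832 units in line 8534 and to only 268 and 326 units in line 8542, where Krt14 was at 15.9 and 10.0 units. Summed signals of 7 leukocyte markers were 374 to 606 units over the 4 arrays. Those of 5 endothelial markers were 134 to 270 units and those of 4 adipocyte markers 20.7 to 36.8 units. The 6 fibroblast markers summed to 638 and 938 units in line 8534 and to 156 and 152 units in line 8542. Ptprc, which encodes the pan-leukocyte antigen CD45, stayed between 6.08 and 7.20 units, and Adipoq, the adipocyte hormone adiponectin, between 0.63 and 3.17 units. Values are MAS5 signals, in units scaled on each array, and the median probe set lay at 29.1 to 30.5 units. Signals of different probe sets cannot be compared with each other as amounts of RNA.

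Of the 10 genes, 2 changed in both lines, in opposite directions. Elf5 fell, Wfdc18 rose, and the remaining 8 genes did not pass the test. Treatment was tested with limma, blocking on the cell line, over the 33778 probe sets whose mean log2 signal reached the 25th percentile, and p values were adjusted over all of these by the Benjamini-Hochberg method. Where a gene had several probe sets, the brightest by mean log2 signal is called its lead probe set, and the lead probe sets of all 10 genes passed the level filter. At an adjusted p under 0.05, 1 of the 10 genes was higher, against 4.76% of the 15070 genes tested, and 1 was lower, against 6.95%. A change of over 2-fold in each line, as the methods required, called these genes too, 1 higher against 3.09% of 18193 genes and 1 lower against 4.42%. With so few genes, 1 call in either direction does not set them apart from the other genes on the array.

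**Figure D1:**
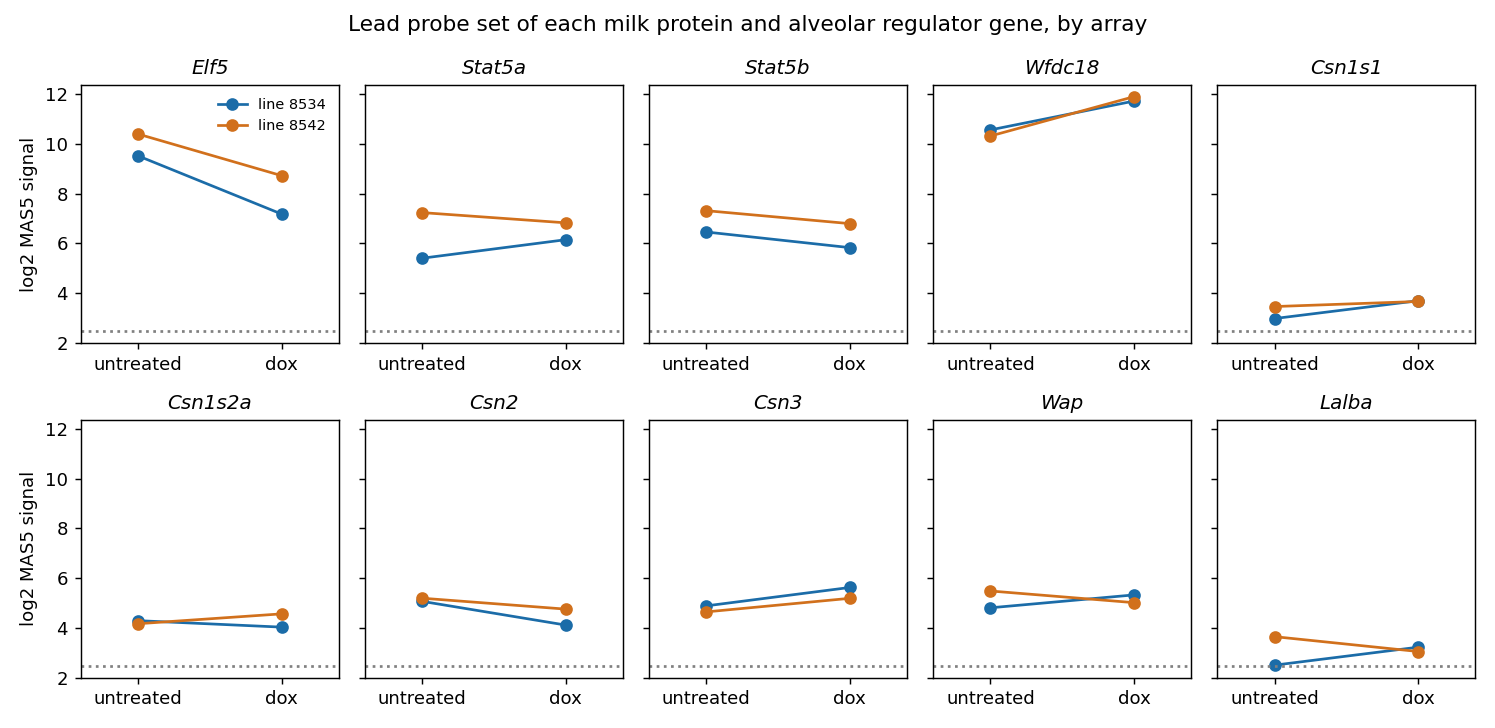
Log2 MAS5 signal (vertical axis) of the lead probe set of each gene without and with doxycycline (dox). Points stand for single arrays and are joined within a cell line. A dotted line is drawn at the 20th percentile of all values (2.47). Elf5 descends and Wfdc18 climbs in both lines, and the casein genes, Wap and Lalba stay below 6 on every array.

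Elf5, the alveolar fate regulator, fell about 4-fold. Its lead probe set (1419555_at) fell from 732 units to 145 in line 8534 and from 1345 units to 422 in line 8542. Both treated arrays lay below both untreated arrays. Line 8534 fell 5.06-fold and line 8542 3.19-fold. On the log2 scale the mean change was -2.01 ± 0.47 (SD, n = 2 lines), or 4.02-fold, with an adjusted p of 0.00116 in limma. The second Elf5 probe set (1419556_at) read 97.1 and 24.6 units in line 8534 and 164 and 53.2 units in line 8542. It fell 3.95-fold and 3.09-fold (mean log2 fold change -1.80 ± 0.25, limma adjusted p = 0.00387). The 2 probe sets of Elf5 therefore gave falls of similar size, and in each of them line 8534 fell by more than line 8542. In whole cultures a smaller share of cells with Elf5 RNA and less Elf5 RNA per cell cannot be told apart. The call rests on the model: without the block the adjusted p was 0.265, and without the intensity trend in the variance it was 0.229.

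Wfdc18 (also named Expi or WDNM1), a small secreted protein of the family of whey acidic protein, rose. Its single probe set (1417160_s_at) rose from 1509 units to 3371 in line 8534 and from 1273 units to 3811 in line 8542. Both treated arrays lay above both untreated arrays, and the lines started from similar signals. Line 8534 rose 2.23-fold and line 8542 2.99-fold. The log2 changes averaged 1.37 ± 0.30 (SD, n = 2 lines), or 2.59-fold, and the adjusted p in limma was 0.00142. The suffix _s_at marks a probe set whose probes can also match another transcript, and how much of the signal comes from Wfdc18 was not tested. As for Elf5, the call was lost without the block (adjusted p = 0.0695) and without the intensity trend (adjusted p = 0.237). Luminal markers moved in the same arrays: 5 of 8 rose and Krt19 fell, beside 4.76% higher and 6.95% lower of all genes tested. The rises ran from 1.39-fold for Krt8 to 2.86-fold for Cldn4, a claudin of tight junctions. Without the block, or without the intensity trend, 0 of the 8 passed. The part of these markers in the rise of Wfdc18 was not tested.

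The 6 other milk protein genes, the caseins, Wap and Lalba, did not pass the test. Their lead probe sets ranged from 5.65 to 49.2 units over the 6 genes and 4 arrays, where 20% of all values lie under 5.52 units. Csn1s1, Csn1s2a and Lalba stayed under the array median on every array, while Csn2, Csn3 and Wap lay around it. Mean log2 fold changes ran from -0.70 to 0.64 with a median of 0.07, beside a median of 0.02 over all genes tested, and adjusted p from 0.264 to 0.979 (limma). None of the 6 reached an unadjusted p under 0.05, and none of their 12 probe sets passed 2-fold one way in both lines.

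Among the caseins, Csn1s1 (described below) was higher on both treated arrays, and so was Csn3, which encodes the micelle-stabilizing kappa-casein. Its lead probe set (1419735_at) went from 29.5 units to 49.2 in line 8534 and from 24.9 units to 36.4 in line 8542. The treated arrays lay above the untreated ones without overlap, yet the mean difference of 0.64 ± 0.14 on the log2 scale (SD, n = 2 lines) missed the threshold (adjusted p = 0.264 in limma). Its 95% interval in the model, unadjusted, was -0.06 to 1.35. The other Csn3 probe set (1451851_a_at) was under 2.9 units on every array and under the level filter.

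Csn2, the gene of beta-casein, had the lowest mean change of these 6 genes. Its lead probe set (1420370_s_at) went from 33.4 units to 17.3 in line 8534 and from 36.5 units to 26.9 in line 8542. The treated arrays lay below the untreated ones, by a mean of -0.70 ± 0.36 on the log2 scale (adjusted p = 0.30 in limma) and an interval of -1.52 to 0.13. The other Csn2 probe set (1420369_a_at) read 10.7 and 13.4 units in line 8534 and 10.1 and 10.5 units in line 8542. It did not show the lower treated signal, so that the 2 probe sets of Csn2 disagreed in sign.

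The alpha-casein genes gave no common direction. Csn1s1 (1420627_a_at) went from 7.86 units to 12.9 in line 8534 and from 10.98 units to 12.7 in line 8542 (mean log2 fold change 0.46 ± 0.36, limma adjusted p = 0.752). The lead probe set of Csn1s2a (1436488_at) read 19.5 and 16.3 units in line 8534 and 17.9 and 23.6 units in line 8542, for a mean log2 difference of 0.07 ± 0.46 (adjusted p = 0.953 in limma). Csn1s2a had 4 further probe sets. Of these, 1438694_at was tested (8.30 to 16.4 units, limma adjusted p = 0.895), and the others lay under the level filter, at 0.55 to 7.27 units. At such signals the intervals are wide, from -1.08 to 2.00 for Csn1s1 and from -0.97 to 1.11 for Csn1s2a on the log2 scale. These intervals are unadjusted, and a rise of over 2-fold lies inside both, so neither gene can be called unchanged.

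The whey genes Wap and Lalba moved in opposite directions in the lines. Wap (1448386_a_at) went from 27.9 units to 40.0 in line 8534 and from 44.6 units to 32.3 in line 8542. Lalba (1418363_at) read 5.65 and 9.32 units in line 8534, and 12.5 and 8.26 units in line 8542. Mean log2 fold changes were 0.02 ± 0.70 for Wap and 0.06 ± 0.93 for Lalba (SD, n = 2 lines; limma adjusted p = 0.979 and 0.978). No test of a difference between the lines in these responses was possible, because the extra term would leave 0 residual degrees of freedom.

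**Figure D2:**
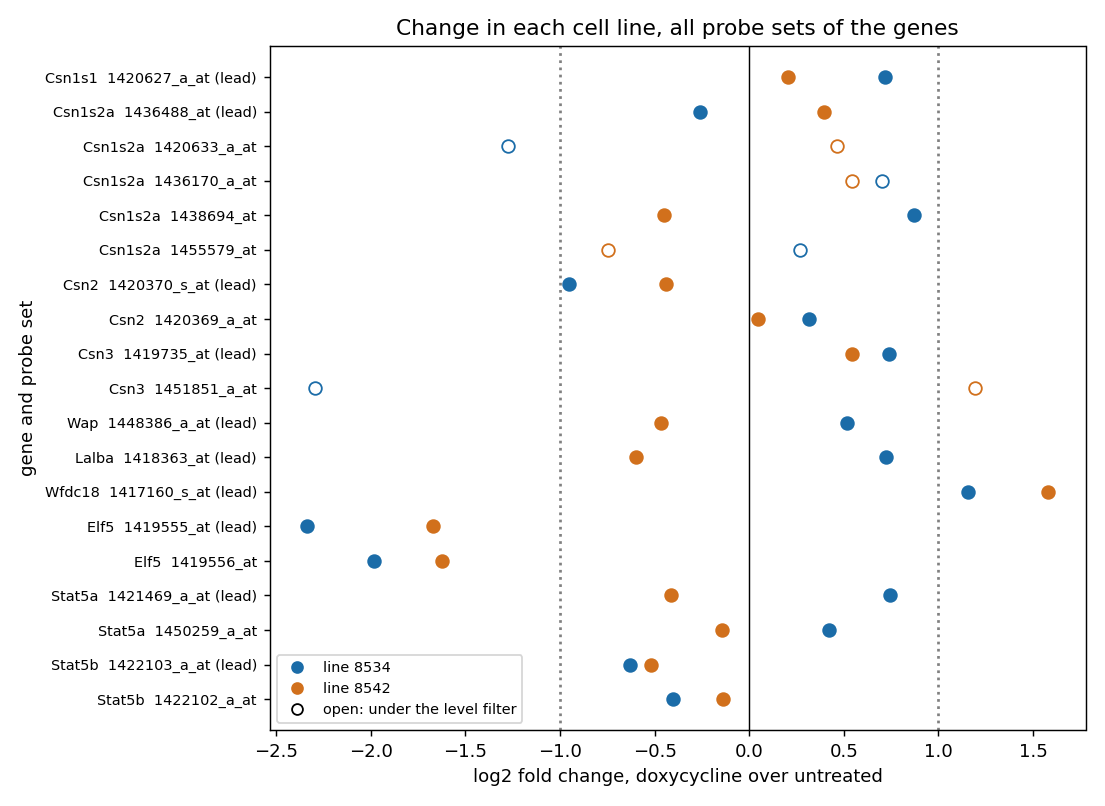
Log2 fold change (doxycycline over untreated, horizontal axis) of all 19 probe sets, 1 point per cell line. Open points mark the 4 probe sets under the level filter and dotted lines mark a 2-fold change. The 2 Elf5 probe sets lie beyond the left line and Wfdc18 beyond the right line in both cell lines, and the open points of Csn3, on signals under 2.9 units, lie far apart.

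The STAT5 genes, which encode the transcription factors that prolactin activates, changed by less than 2-fold in each line. Stat5a, whose product is the major STAT5 of the mammary gland, went from 42.2 units to 70.7 in line 8534 and from 150.5 units to 113 in line 8542 (1421469_a_at). It was higher with doxycycline in the first line and lower in the second, for a mean log2 difference of 0.17 ± 0.82 (SD, n = 2 lines), an adjusted p of 0.807 in limma and an interval of -0.52 to 0.86. The other Stat5a probe set (1450259_a_at) showed the same pair of directions, 17.3 and 23.1 units in line 8534 and 65.6 and 59.4 units in line 8542. Stat5b was lower on both treated arrays, at 87.7 and 56.7 units in line 8534 and 159 and 111 units in line 8542 (1422103_a_at). That difference, 1.55-fold and 1.43-fold, averaged -0.57 ± 0.08 on the log2 scale with an unadjusted interval of -1.02 to -0.13, but did not pass after adjustment (limma adjusted p = 0.123). Its other probe set (1422102_a_at) read 59.8 and 45.2 units in line 8534 and 43.0 and 39.0 units in line 8542 (adjusted p = 0.614). The deposited arrays measure STAT5 RNA and not its phosphorylation.

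Of the 3 regulators, 2 also differed between the cell lines by their lead probe sets. In the same model, read for the line term after the values were seen, Elf5 was 2.31-fold higher in line 8542 than in line 8534 over both conditions (limma adjusted p = 0.0152), and Stat5b was 1.88-fold higher (adjusted p = 0.0466). Of the 10 genes, 2 were thus higher in line 8542, against 2.36% of genes tested, and none lower, against 3.28%. That count of 2 was 1 without the level filter, with quantile normalization or over the mean of a gene's probe sets, 0 without the intensity trend, and 3 with the filter at the 50th percentile or a floor at the 20th. No milk protein gene passed this comparison. Stat5a was 2.39-fold higher in line 8542 and missed the threshold by its lead probe set (adjusted p = 0.0646), whereas its other probe set passed (log2 difference 1.64, adjusted p = 0.0339). The second probe sets of Elf5 (log2 difference 0.94, adjusted p = 0.0712) and Stat5b (-0.34, adjusted p = 0.554) did not pass. Basal and fibroblast markers, as given above, also set the lines apart, and their part in these differences was not tested.

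The genes around this set were read from 6 lists. Counts in each stand beside the shares over all genes tested, 4.76% higher and 6.95% lower. Of 18 other milk and milk fat globule genes, 17 were measured and 11 tested. Mfge8, the milk fat globule protein lactadherin that helps clear dying cells, fell from 3128 units to 1548 in line 8534 and from 2282 units to 1489 in line 8542 (mean log2 fold change -0.82 ± 0.28, limma adjusted p = 0.00891). None rose. The median of the tested members was 0.49 on the log2 scale, and 6 members lay under the level filter. Pthlh was not analysed here.

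Of 18 genes tested for milk sugar, lipid and calcium supply, 2 rose and 3 fell, beside 4.76% and 6.95% of all genes. Gpam, which starts glycerolipid synthesis at the mitochondrion, fell from 4512 units to 969.5 in line 8534 and from 4846 units to 825 in line 8542 (limma adjusted p = 0.000178). Elovl5, a fatty acid elongase, fell 1.80-fold and 2.04-fold, and the desaturase gene Scd2, named after its values were seen, fell as well (mean log2 fold change -0.64). Ugp2, which makes the UDP-glucose needed for lactose, rose 1.52-fold and 2.48-fold, and Slc12a2, the basolateral sodium, potassium and chloride carrier, rose 1.82-fold and 2.31-fold. B4galt1, the galactosyltransferase partner of LALBA and named outside the naming rule, read 342 and 434 units in line 8534 and 330 and 366 units in line 8542 and did not pass (limma adjusted p = 0.351).

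In the relay from the prolactin receptor to STAT5 none of 18 genes tested passed in limma, beside 4.76% higher and 6.95% lower of all genes. Jak2, the kinase of the receptor, went from 83.2 units to 154.5 in line 8534 and from 107 units to 110 in line 8542 (adjusted p = 0.321). Cish and Socs2 are feedback inhibitors that STAT5 itself induces. Cish read 114 and 120 units in line 8534 and 144 and 248 units in line 8542 (adjusted p = 0.284), and Socs2 read 288 and 251.5 units in line 8534 and 539.5 and 520 units in line 8542 (adjusted p = 0.662). The receptor gene Prlr was not analysed here.

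Of 15 STAT5 target genes outside milk that were tested, 2 fell, beside 6.95% of all genes, and none rose, beside 4.76%. They were Ccnd1, the gene of cyclin D1, which fell 7.13-fold and 7.35-fold, and Wnt4, a secreted WNT ligand that progesterone induces, which fell from 1202 units to 249.5 in line 8534 and from 350 units to 84.8 in line 8542 (limma adjusted p = 0.000486). Both genes are also controlled by other pathways. Of 22 other alveolar and luminal factors tested, 1 rose and 2 fell, close to the shares of 4.76% and 6.95% over all genes. Cebpb, which encodes C/EBP-beta and is required for alveolar development, rose from 884 units to 1471 in line 8534 and from 862 units to 1341 in line 8542 (limma adjusted p = 0.0107). Nfia fell 2.13-fold and 1.75-fold, and the coactivator gene Ppargc1b fell 2.21-fold and 5.12-fold. Gata3, the factor that specifies luminal cells, was low, at 2.41 and 4.01 units in line 8534 and 0.88 and 0.49 units in line 8542, and was not tested.

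The list of STAT3 and involution genes covers the regressing gland after weaning. Of 18 tested, 6 rose and 1 fell, beside 4.76% and 6.95% of all genes, with a median of 0.41 on the log2 scale. Lif, the cytokine that starts involution, rose from 73.6 units to 433 in line 8534 and from 50.3 units to 196 in line 8542 (limma adjusted p = 0.00124). Its receptor gene Lifr fell 5.58-fold and 8.06-fold. The lysosomal protease gene Ctsd rose 2.43-fold and 3.50-fold, and the growth factor gene Tgfb3 rose 2.64-fold and 3.93-fold. Ctsl, Ctsb and Igfbp5 completed the 6 that rose (these 3 are outside the naming rule). Stat3 itself went from 956.5 units to 1010 in line 8534 and from 1531 units to 1520 in line 8542 (adjusted p = 0.903). Of the 18 genes called in the 6 lists, 3 passed without the block and 0 without the intensity trend.

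**Figure D3:**
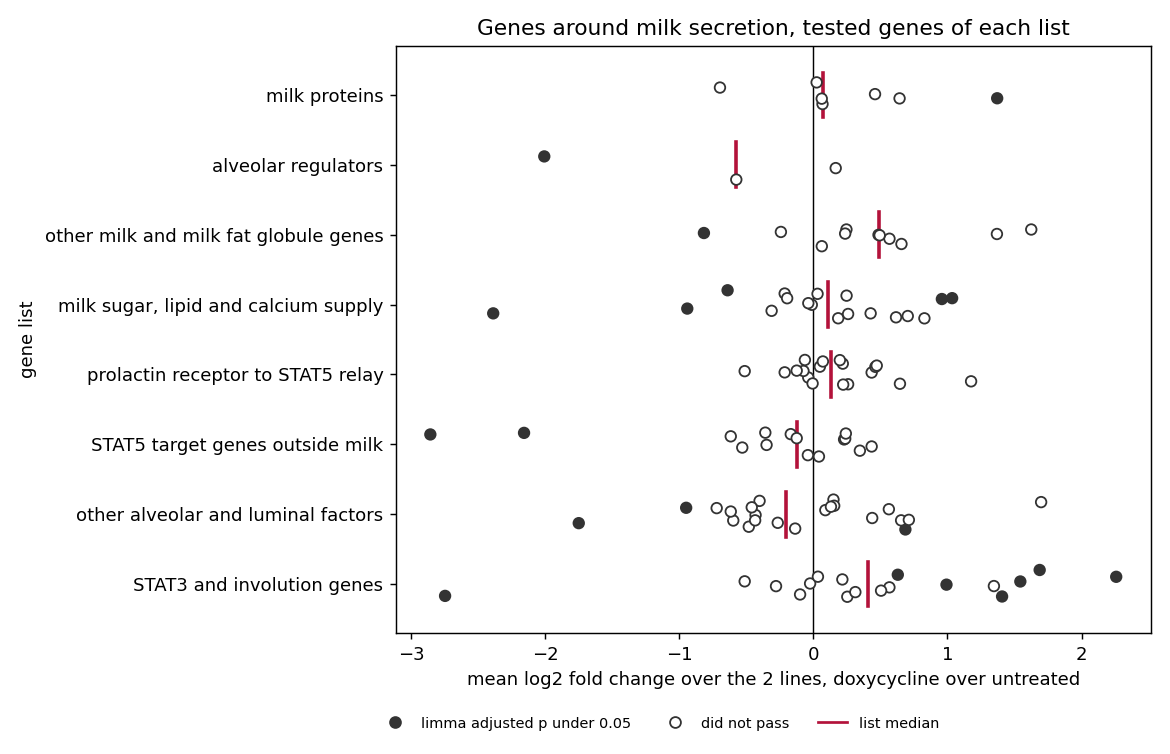
Mean log2 fold change over both lines (doxycycline over untreated, horizontal axis) of every tested gene of 8 lists, 1 point per gene, with vertical offsets only to separate points. Filled points mark a limma adjusted p under 0.05 and red bars mark list medians. The prolactin relay holds no filled point, and the involution list holds 6 filled points on the right and 1 on the left.

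The genes whose pattern over the 4 arrays lay closest to Elf5 and Wfdc18 were sought among the 15070 genes tested, by the Euclidean distance between log2 values centred on their mean. For Elf5 they were Idh1 (distance 0.214), Ccdc57 (0.242) and Rtkn2 (0.308). Idh1, the cytosolic NADP-dependent isocitrate dehydrogenase, fell from 1978 units to 357 in line 8534 and from 3310 units to 925 in line 8542, and like Elf5 it read higher in line 8542. For Wfdc18 they were Shisa4 (distance 0.075), Kank3 (0.087) and Cdkn2a (0.114). Shisa4 read 88.0 and 209 units in line 8534 and 78.9 and 228 units in line 8542. The distances describe 4 arrays only.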

How the data were processed

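RNA from lines 8534 and 8542, untreated or treated with doxycycline, was measured on 4 Affymetrix arrays. Per the labels and the study's methods, MAS5 made the signals, which the authors deposited on a log2 scale. Base 2 was inferred from the range of the numbers. The methods name the 430A2.0 array, whereas the deposited table holds 45101 probe sets. Detection calls were not used, and neither the MAS5 version nor its target value is given in the sources.

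After 64 control probe sets were removed, 34945 of 45037 probe sets had 1 gene symbol. The gene annotation is that of the platform. Changes were taken within each line. limma 3.58.1 (R 4.3.3) was fitted with line and treatment, eBayes with an intensity trend, and Benjamini-Hochberg adjustment. The model left 1 residual degree of freedom and 6.18 prior degrees of freedom, and the number of arrays limits the precision. The block is by design, each pair of arrays sharing a cell line (correlation of deviations from condition means 0.363). The p values rest only in part on the spread between 2 lines from separate tumors, with no repeat arrays. With 1 residual against 6.18 prior degrees of freedom, most weight in each variance comes from the trend over all probe sets tested. They do not measure the variation of a single gene between tumors. The model was tested on simulated data of 33778 probe sets with 200 changed ones. Of those changed by 1 on the log2 scale 54% were called, and of those changed by 2 82%. Of the unchanged ones 0.28% were called, and 40.9% of calls were false, above the nominal share. The simulation held no difference between lines and few changed probe sets, whereas in the data 1245 passed as higher and 1872 as lower. The false share depends on how many probe sets change, so 40.9% is not an estimate for the calls given here.

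The genes, lists and tests were chosen with earlier results of these data known. Besides the 10 genes, the text names up to 4 called genes with the largest change from each surrounding list, Prlr, Jak2, Cish, Socs2, Gata3, Cebpb, Mfge8 and Stat3, and the 3 nearest genes in pattern to the 2 most changed members. Marker genes and the genes said to lie outside the rule were named in addition. Lists were described by counts and medians without a set test. Alternatives were filters on level, quantile normalization, median centring, a floor or pseudocount at the 20th percentile (5.52 units), no block, no trend, probe sets averaged per gene, a 1.5-fold rule and each line alone. Promoter sequences and gene positions are from RefSeq (GRCm38.p6), and sequence analysis used Python 3.11.15.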

Additional observations from a re-analysis of the deposited data

Results flagged for a closer look

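In 4 of the 10 genes the lead probe set changed in opposite directions in the lines, with 1 array per line and condition. The difference was not tested, and the share of all genes with opposite directions was not counted. None of the 4 passed the test of treatment (limma adjusted p from 0.807 to 0.979), so the count is not read as a trait of these genes. The change in line 8542 minus that in line 8534, on the log2 scale, was -1.32 for Lalba, -1.16 for Stat5a, -0.99 for Wap and 0.66 for Csn1s2a. For Stat5a both probe sets showed the same opposite directions. Lalba, at 5.65 to 12.5 units, had the lowest lead signals of the 4.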

How the results depend on the processing

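Elf5 and Wfdc18 kept their direction under every alternative and in each line alone, from -2.34 to -1.67 for Elf5 and from 1.16 to 1.58 for Wfdc18 on the log2 scale. The filters, the floor and the fits without the block or the trend left the changes of both genes as they were. Those settings could therefore not have altered the direction. Both genes passed limma in 7 of 9 alternative fits. The exceptions were the fit without the replicate block, the pairing by line, and the fit without the intensity trend. In both, 0 of the 10 genes were called higher and 0 lower, whereas 1 and 1 were called otherwise. Without the trend no probe set of the array passed (lowest adjusted p = 0.223), and without the block 9 were higher and 83 lower. The cause was not tested. The adjusted p of Elf5 ran from 0.000382 to 0.265 and that of Wfdc18 from 0.000546 to 0.237 over these fits. The other 8 genes passed in none of the fits that tested them, and Stat5b came closest (adjusted p = 0.0813 with the filter at the 50th percentile). The 2-fold rule gave 1 gene higher and 1 lower under each alternative run, the 1.5-fold rule and each line alone included. The comparison of the lines was less stable. The count of genes higher in line 8542 was 2, but 1 without a filter on level, 1 with quantile normalization, 1 over the mean of the probe sets of a gene and 0 without the trend, and it was 3 with the filter at the 50th percentile and 3 with the floor. Low signals, of 5.65 to 12.9 units beside a 20th percentile of 5.52, limit the values of Csn1s1 and Lalba.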

Other observations

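The other genes of the family of whey acidic protein were looked up after the value of Wfdc18 was seen, by the symbol Wfdc and including Slpi. Of these 11 genes, 10 were tested, 1 rose and 1 fell, near the shares of 4.76% and 6.95% over all genes tested. Wfdc2, which encodes the secreted protein HE4, rose from 1808 units to 3259 in line 8534 and from 2356 units to 3413 in line 8542 (limma adjusted p = 0.012). Wfdc3 fell from 1980 units to 354 in line 8534 and from 2404 units to 487 in line 8542 by its lead probe set (1460012_at). The mean log2 difference was -2.39 ± 0.13 (SD, n = 2 lines), with an adjusted p of 0.000173 in limma. The other Wfdc3 probe set read only 48.0 to 67.1 units and did not show this fall. Slpi, a secreted protease inhibitor, went from 102 units to 226 in line 8534 and from 79.4 units to 100.5 in line 8542 and did not pass (adjusted p = 0.105). Wfdc17 read 6.02 and 80.2 units in line 8534 but 9.41 and 10.4 units in line 8542 (adjusted p = 0.232).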
